A study of Glycine max with 46 samples.

Results

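Soybean (Glycine max, cultivar Williams 82) seeds sampled 3 h after imbibition, the uptake of water that starts germination, were compared with seeds in late desiccation, the last drying stage on the labels before the mature dry seed. Samples were chosen by their stage labels alone. These take in 12 of the 46 labelled sequencing runs, and 11 of the 12 had values, which were averaged to 3 biological replicates in each stage. The other 5 stages of the study were early desiccation, mid desiccation, mature dry seed, and imbibed seed at 16 and at 27 h. Each had 3 replicates. They served to describe the genes that changed, and they were also in the main fit (limma). The spread of their replicates therefore entered the standard errors (SE), p-values and calls of that fit. All groups are of the same genotype, and no other treatment is labelled. The label for tissue is whole seed, although embryos are what the extraction protocol mentions. Replicates are labelled as biological, but whether they came from separate plants or seed lots is not stated. The p-values of the fit therefore measure only the spread between the sampled replicates of all these stages.

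An orthodox seed dries at the end of maturation and keeps messenger RNA made before drying. On imbibition water enters quickly, respiration and protein synthesis resume from stored components, and new transcription follows. Proteins that protect dried cells, together with storage reserves, are typical products of the drying phase, and their messages are known to decline as germination proceeds. Dry seed stands between the compared stages in time, so the comparison spans the end of drying and the first hours of rewetting.

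Values are normalized counts, which are read counts divided by a size factor per library, and results rest on the 10250 genes with means of at least 200 normalized counts in both stages. Depth was uneven. Only run 1 gave values for late desiccation replicate 3, with 2.53 M reads (mega-reads), and there 1 read is worth 8.68 normalized counts and the limit of 200 corresponds to 23.0 reads. The other 5 replicates held 49.72 to 65.97 M reads. Among 8047 genes with means under 2 at 16 and 27 h, the mean level was 8.60, 6.67 and 0.831 normalized counts in late desiccation replicates 1 to 3, and 1.28, 2.97 and 4.17 in the 3 h replicates. The part of this low level in the results was not tested. The labelled tissue was not checked against marker genes, because the table gives IDs without gene names.

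With the deposited scaling, most genes at this level differed little between the drying and the rewetted seed. Of the 10250 genes, 253 were called (2.47%), by an adjusted p under 0.05 in limma and a change of at least 2-fold. Of these, 178 rose (1.74%) and 75 fell (0.732%) at 3 h. Over all 46537 genes tested 627 were called (1.35%), with 308 higher (0.662%) and 319 lower (0.685%). The replicates of both stages did not overlap for 3387 of the 10250 genes (33.0%), and 3326 had an unadjusted p under 0.05. A difference in normalized count can reflect a change in RNA per cell or in the share of cells of a type, which cannot be told apart in whole seeds.

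The called changes were of modest size. The 178 genes that rose had a median log2 change of 1.18, at most 2.65, and 9 of them rose at least 4-fold. Their median level was 568 normalized counts in late desiccation and 1332 at 3 h. The 75 genes that fell had a median log2 change of -1.34, with 13 of them lower by at least 4-fold, and their median level went from 1804 to 464 normalized counts. Both means had to be at least 200, so a fall could be called only from a higher starting level than a rise. The difference in starting levels follows in part from that limit. Replicates of the stages did not overlap for 176 of the genes that rose and for all 75 that fell, which follows in large part from how they were called.

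Numbers and their direction depended on scaling and on single replicates. With the deposited size factors 70.4% of called genes rose. Scaling by TMM (trimmed mean of M values) shifted the median over all genes tested from -0.07 to 0.35 on the log2 scale, and that of the 10250 genes from 0.14 to 0.61, and gave 1507 calls of which 98.7% rose. Scaling to the median of the genes at the level limit gave 90 that rose and 151 that fell, so 37.3% rose. In all 3 scalings 109 genes were called, 90 of them higher and 19 lower at 3 h. The number called was 79 without late desiccation replicate 1, 470 without late desiccation replicate 3, 135 without 3 h replicate 1 and 166 without 3 h replicate 2. In each of the 6 fits that left out 1 replicate, the same 72 genes were called, 56 that rose and 16 that fell.

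**Figure D1:**
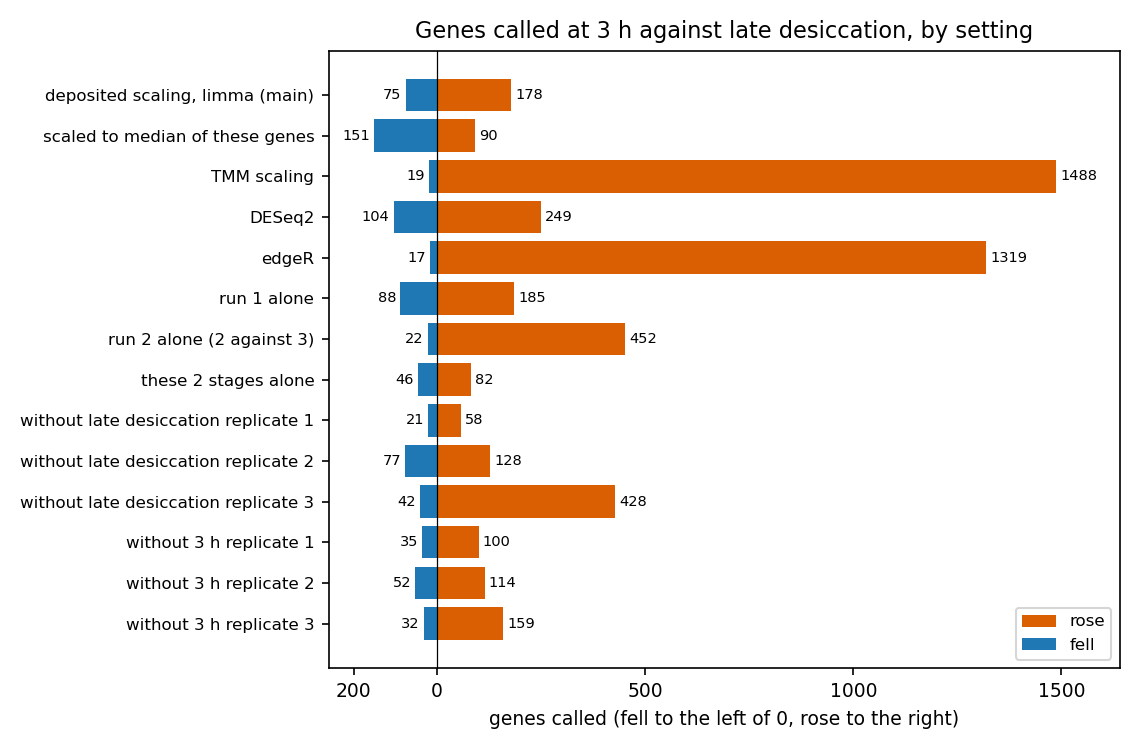
Genes called at 3 h against late desiccation under different scalings, tests, runs and sets of replicates, counted among genes with both stage means of 200 or more. Bars to the right count genes that rose and bars to the left genes that fell. The number that rose spans 58 without late desiccation replicate 1 to 1488 under TMM scaling, and the number that fell spans 17 under edgeR to 151 under scaling to the median.

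For a small set of genes the value differed with the sequencing run. Among the 10250 genes, 223 (2.18%) differed at least 2-fold between run 1 and run 2 of the same replicate, on average over the 5 replicates with both runs. Run 1 was higher for 178 of them and lower for 45, the sign was the same in all 5 replicates for 222, and the difference was at least 8-fold for 104. Median differences over all genes were small, 0.02 to 0.13 on the log2 scale. Averaging the runs therefore does not treat the stages alike for these genes, because late desiccation replicate 3 has values from run 1 alone. Of the 223 genes 14 were called (6.28%), 1 as higher and 13 as lower at 3 h, against 239 of the 10027 genes whose runs agree (2.38%), 177 that rose and 62 that fell. With agreeing runs 9 genes rose and 9 fell by at least 4-fold.

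**Figure D2:**
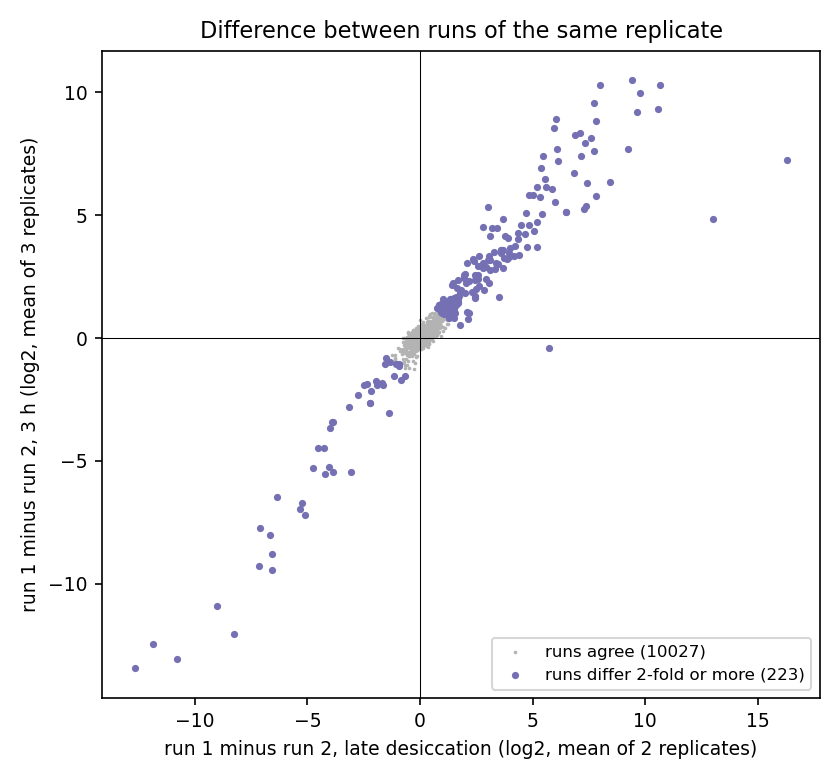
Difference between run 1 and run 2 of the same replicate (log2, run 1 minus run 2) for each gene with both stage means of 200 or more, averaged over the 2 late desiccation replicates with both runs (horizontal) and the 3 replicates at 3 h (vertical). The 10027 genes whose runs agree sit around 0, and the 223 others lie along a diagonal, and the sign of the difference was the same in all 5 replicates for 222 of them.

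The largest apparent falls belonged to genes whose values came from run 1 alone. Glyma09g28800 was listed at 491577, 332795 and 658114 normalized counts in run 1 of the late desiccation replicates, but at 52.0 and 43.3 in run 2 of replicates 1 and 2. At 3 h it was listed at 1686, 436 and 71.0 in run 1 and at 4.70, 13.2 and 26.6 in run 2. Run 1 was higher in every replicate with both runs, and within run 1 the stages did not overlap. Averaged over runs, Glyma09g28800 had a log2 change of -10.47 ± 1.51 (SE, limma adjusted p = 0.00303). With run 1 alone, 3 against 3, it was -10.31 (limma adjusted p = 0.00185). With run 2 alone, 2 against 3, it was -1.89 (limma adjusted p = 0.557). DESeq2 gave -11.03 but no p-value.

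Glyma11g33922 had the same form. Its run 1 values in late desiccation were 209859, 167946 and 329881 normalized counts, and its run 2 values were 0.333 and 3.00. At 3 h run 1 gave 1159, 268 and 49.1, and run 2 gave 3.36, 0 and 0. The log2 change from averaged runs was -10.14 ± 1.56 (SE, limma adjusted p = 0.00399), and with run 1 alone -9.82 (limma adjusted p = 0.00362). DESeq2 gave no p-value for this gene either. Run 2 held almost no reads of the gene in either stage, and the cause of the difference between runs was not tested. Both genes are first in the order of falls by size. Below, counts over all called genes include them, and counts over genes with agreeing runs do not.

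**Figure D3:**
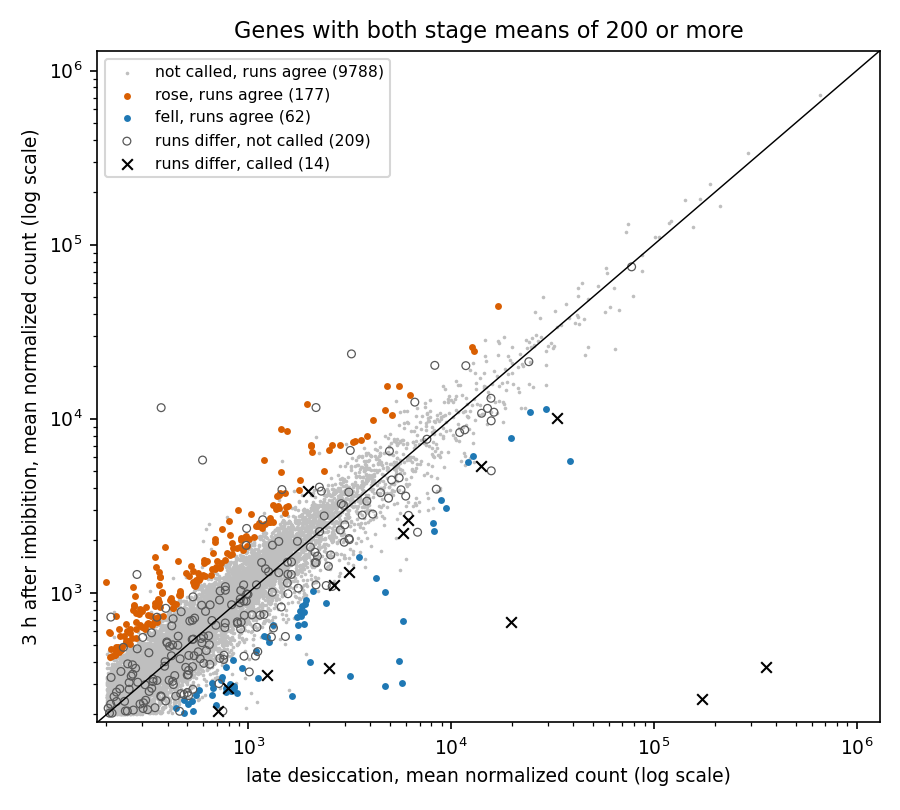
Mean normalized count at 3 h (vertical) against late desiccation (horizontal), both log axes, for the 10250 genes with both means of 200 or more, with the line of equal levels. Genes lie close to the line, 177 that rose and 62 that fell with agreeing runs flank it, and the 2 crosses farthest to the lower right are genes whose runs differ.

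Among the 10027 genes whose runs agree, the median log2 change with the deposited scaling was 0.15, with quartiles of -0.12 and 0.40 and a 5th to 95th percentile range of -0.59 to 0.80. Of these genes 8489 (84.7%) lay within 1.5-fold of the median. The point estimate was at least 2-fold up for 223 (2.22%) and at least 2-fold down for 139 (1.39%).

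Glyma08g12270 had the largest rise. It was at 1594, 1968 and 2300 normalized counts in late desiccation and at 10529, 13249 and 12888 at 3 h. Every imbibed replicate lay above every drying one, and run 1 and run 2 gave nearly the same values. The log2 change was 2.65 ± 0.28 (SE, n = 3 against 3, limma adjusted p = 5.9e-05). The level of Glyma08g12270 was already high in dry seed, 10051 ± 3900 (SD, n = 3), so the dry seed differed from late desiccation by 2.31 (limma adjusted p = 3.29e-05) while 3 h differed from dry seed by 0.34 (adjusted p = 0.676). Its mean was 5390 at 16 h and 1617 at 27 h.

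Glyma01g10900 was second. Its values were 1101, 1624 and 1606 normalized counts in late desiccation and 9916, 8416 and 7908 at 3 h. The groups were far apart, with a log2 change of 2.61 ± 0.45 (SE, n = 3 against 3, limma adjusted p = 0.0049). Dry seed lay at 3291 ± 1796 (SD, n = 3). For Glyma01g10900 neither step passed the test alone, with 1.08 from late desiccation to dry seed (limma adjusted p = 0.170) and 1.53 from dry seed to 3 h (adjusted p = 0.0501).

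Other genes near the top of the rises took a different course over the 7 stages. The third gene in the order went from a mean of 200 normalized counts in late desiccation to 1157 at 3 h (log2 change 2.56 ± 0.62 SE, limma adjusted p = 0.0305). Its mean was 131 in dry seed, 841 and 1397 in early and mid desiccation and 72.9 at 27 h, so the 3 h mean lay between those of early and mid desiccation. The ninth gene differed from it. It rose from 270 to 1087 normalized counts (log2 change 2.08 ± 0.27 SE, limma adjusted p = 0.000461) and stood at 1376 at 16 h and 2732 at 27 h, higher with each later stage. Means at 27 h of the 12 leading genes that rose spanned 32.2 to 2732 normalized counts.

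Genes that fell, where runs agree, were led by Glyma20g35650 and Glyma04g40790, chosen after their values were seen in place of the run-dependent genes. Glyma20g35650 was at 7655, 4378 and 5147 normalized counts in late desiccation and at 287, 389 and 231 at 3 h. Run 1 was higher than run 2 in late desiccation, 9228 against 6082 in replicate 1 and 5019 against 3737 in replicate 2. All imbibed values lay far below all drying values, and the log2 change was -4.23 ± 0.61 (SE, n = 3 against 3, limma adjusted p = 0.00165). In dry seed it was at 3342 ± 413 (SD, n = 3). For Glyma20g35650 the difference between dry seed and late desiccation was -0.74 (limma adjusted p = 0.548) and that between 3 h and dry seed was -3.49 (adjusted p = 0.00202). Its means were 142 at 16 h and 6.44 at 27 h.

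Glyma04g40790 was at 6161, 3730 and 4279 normalized counts in late desiccation and at 330, 410 and 135 at 3 h. The stages were again separate, with a log2 change of -4.13 ± 0.68 (SE, n = 3 against 3, limma adjusted p = 0.00389). Its dry seed level was 3690 ± 389 (SD, n = 3). The change of Glyma04g40790 was -0.33 from late desiccation to dry seed (limma adjusted p = 0.842) and -3.80 from dry seed to 3 h (adjusted p = 0.00247). Later means were 130 at 16 h and 16.3 at 27 h.

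**Figure D4:**
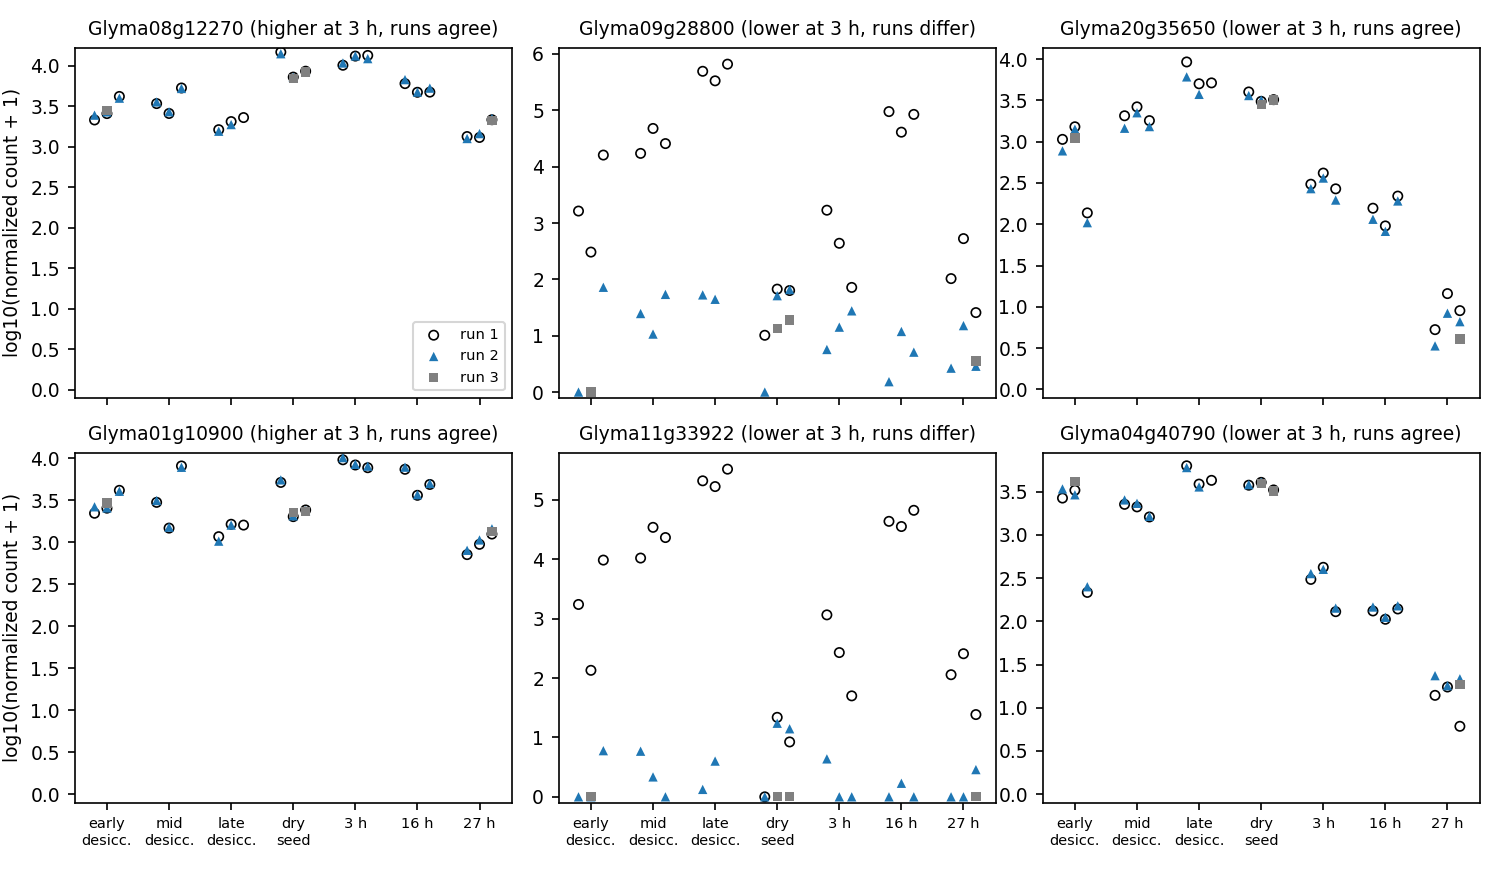
Values of 6 genes in each run (log10 of normalized count plus 1, vertical) at the 7 stages (horizontal), with the 3 replicates of a stage side by side. Symbols mark runs 1, 2 and 3. In the left and right columns the runs of a replicate differ by less than 2-fold on average (a mean log2 difference of 0.37 for Glyma20g35650), while for Glyma09g28800 and Glyma11g33922 in the middle column run 1 of late desiccation lies far above run 2.

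The leading falls went on to low levels. Of the 12 genes with the largest falls and agreeing runs, 10 had a mean under 50 normalized counts at 27 h, and the range was 6.44 to 646. These 12 were picked for large falls, and the share of all genes under 50 was not counted. The sixth was the most abundant, at 38746 in late desiccation, 5750 at 3 h (log2 change -2.81 ± 0.60 SE, limma adjusted p = 0.0171), 3682 at 16 h and 181 at 27 h. The eleventh differed in time, since its dry seed mean of 1026 was already below its 3 h mean of 1217, from 4285 in late desiccation (log2 change -1.84 ± 0.49 SE, limma adjusted p = 0.0481). Among all 62 genes that fell with agreeing runs, 34 (54.8%) had a mean under 200 at 27 h, against 35 of the 177 that rose (19.8%) and 2037 of the 10027 genes (20.3%).

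Levels were set against dry seed. Genes that rose with agreeing runs had a median log2 level over dry seed of -0.33 in late desiccation, 0.87 at 3 h, 0.36 at 16 h and -0.44 at 27 h. Those that fell had 0.33 in late desiccation, -1.24 at 3 h and -2.68 at 27 h, with 16 h in between. After 3 h the medians of both groups and of all 10250 genes went down, and at 27 h all of these lay below dry seed. Medians of all 10250 genes were -0.18 in late desiccation, -0.05 at 3 h, -0.28 at 16 h and -0.70 at 27 h. Late desiccation and 3 h values of the called genes were used to choose them, so those points are a description. A drop from 3 h in genes that rose can follow in part from that choice. The 16 and 27 h libraries were not in the contrast, though they were in the fit.

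**Figure D5:**
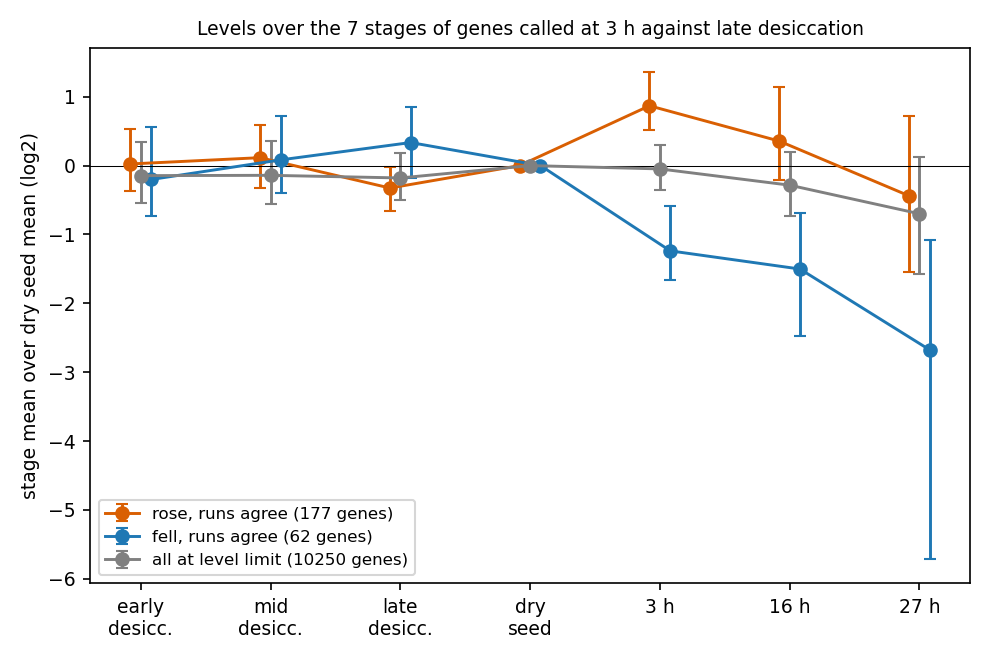
Median log2 ratio of each stage mean to the dry seed mean (vertical) over the 7 stages (horizontal) for genes that rose, genes that fell and all genes at the level limit, with bars for the quartiles over genes. Medians of both called groups go down after 3 h, to -0.44 and -2.68 at 27 h, and that of all genes goes to -0.70.

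Both comparisons through dry seed share its libraries, so their values are given side by side. For the 177 genes that rose with agreeing runs, the median log2 change was 0.35 from late desiccation to dry seed (quartiles 0.04 and 0.69) and 0.87 from dry seed to 3 h (0.52 and 1.35). For the 62 that fell with agreeing runs, the medians were -0.30 (-0.84 and 0.21) and -1.24 (-1.69 and -0.58), and over all 75 that fell they were -0.42 and -1.05. Over all 10250 genes they were 0.19 and -0.05.

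In the genes with means of at least 200 in late desiccation, dry seed and 3 h and agreeing runs, 9574 in all, the imbibed seed differed from the drying seed in 231 genes (2.41%). Dry seed differed from late desiccation in 499 (5.21%) and 3 h differed from dry seed in 474 (4.95%). The difference between these counts was not tested. The smallest count was that of 3 h against late desiccation with the deposited scaling, with scaling to the median (218, 447 and 488) and without late desiccation replicate 3 (437, 683 and 491), but not under TMM scaling (1435, 1799 and 447). The median absolute log2 deviation from the median change was 0.26 for 3 h against late desiccation and 0.31 for each of the other comparisons. Pearson's r of stage mean log levels across these genes, which are not independent replicates, was 0.945 between late desiccation and 3 h, 0.929 between late desiccation and dry seed and 0.924 between dry seed and 3 h.

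Between single replicates, the shares of genes 2-fold apart overlapped in part with those within a stage. The share of genes at least 2-fold apart, after centring, was 3.09% to 9.34% over the 9 pairs of a late desiccation and a 3 h replicate. Pairs within a stage gave 0.428% to 3.36% in late desiccation and 0.167% to 2.35% at 3 h. In late desiccation, replicates 1 and 2 gave 0.428%, and the pairs with the shallow replicate 3 gave 2.92% and 3.36%. Median absolute log2 differences did not overlap, at most 0.251 within these stages and at least 0.265 between them. The 9 pairs of late desiccation and dry seed replicates gave 6.10% to 10.7%, and the 9 pairs of dry seed and 3 h replicates 6.14% to 9.996%.

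Genes were next grouped by which of the 5 stages outside the contrast had their highest mean. Of the 1208 genes highest at 16 h, 65 rose (5.38%) and 5 fell, beside 1.74% and 0.732% over all genes at this level, and 2 of the 5 falls had agreeing runs. Genes highest at 27 h numbered 1681, of which 32 rose (1.90%) and 2 fell. The 4116 genes highest in dry seed held 43 that rose (1.04%) and 29 that fell, 26 of the falls with agreeing runs. Of the 1742 highest in early desiccation 12 rose and 12 fell, 11 and 8 of them with agreeing runs. Of the 1503 highest in mid desiccation 26 rose (1.73%) and 27 fell (1.80%), 24 of the falls with agreeing runs. The median log2 change, relative to that of all 10250 genes, was 0.14 in the 16 h group, 0.08 in dry seed, -0.05 at 27 h and -0.16 in both drying groups. These relative medians were the same under TMM scaling, which could hardly change them, since 1 factor per library shifts all genes almost alike. Without late desiccation replicate 3 the mid desiccation group moved to -0.06 and the 27 h group to -0.09. With run 1 alone the 27 h group was at -0.03.

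Counts in these groups moved with the scaling. Under TMM 311 of the 1208 genes in the 16 h group rose, 217 of the 1681 in the 27 h group and 654 of the 4116 in the dry seed group. Over all 10250 genes 1488 rose under TMM. Scaling to the median gave 39, 16 and 16 that rose in the same groups, and 61 of the 1503 in the mid desiccation group fell. Over all 10250 genes 90 rose and 151 fell with that scaling. No test of a difference between groups was made.

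By abundance, of the 7151 genes with a mean of 200 to 1000 normalized counts over the 7 stages, 100 rose and 34 fell (1.87% called), 31 of the falls with agreeing runs. Of the 2644 genes from 1000 to 5000, 67 rose and 29 fell (3.63% called), 23 of the falls with agreeing runs. Of the 359 genes at 5000 or more, 11 rose and 12 fell (6.41% called), 8 of the falls with agreeing runs. Over all 10250 genes 2.47% were called. Under TMM 970, 470 and 47 genes rose in these classes from low to high, and 6, 9 and 4 fell. The share called was then largest in the middle class. Scaling to the median gave 43, 41 and 6 that rose and 72, 56 and 23 that fell, with the largest share in the highest class. No test between classes was made.

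The most abundant messages were largely shared. Of the 100 leading genes of each stage 78 were the same. They took 29.9%, 28.4% and 34.9% of the normalized total in the late desiccation replicates and 28.6%, 32.4% and 27.0% at 3 h. The ranges overlapped, and the means of 31.1% ± 3.41 and 29.3% ± 2.76 (SD, n = 3) differed by -1.75 percentage points (exact permutation test, two-sided, p = 0.6, where 3 against 3 cannot go below 0.1). Without late desiccation replicate 3 the difference was 0.175. Of the 122 genes in either list, 14 were called (11.5%), beside 2.47% of the 10250 genes at the level limit. Of the 14, 3 were higher and 11 lower at 3 h, and 7 were genes whose runs differ. The lists came from the compared libraries, so a gene could enter by a high level in 1 stage alone. The share of 11.5% is therefore a description.

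The same gene led both stages. It was at 594054, 534414 and 846812 normalized counts in late desiccation and at 708969, 1113744 and 341403 at 3 h. The imbibed replicates spread around the drying ones, and the log2 change was 0.00 ± 0.47 (SE).

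Positions were read from the chromosome number in the gene IDs. The share called was 2.47% over all 10250 genes. By chromosome it ran from 1.27% on chromosome 6 to 4.29% on chromosome 19, where 13 of 466 genes rose and 7 fell, 6 of these with agreeing runs. The share that rose was highest on chromosome 17, where 17 of 531 genes rose (3.20%), beside 1.74% over all genes at this level. With scaling to the median, 9 rose and 6 fell there, beside 90 and 151 over all 10250 genes. Under TMM 73 of the 531 rose, beside 1488 of the 10250. No test by chromosome was made. Called genes of 1 direction followed each other in ID order, among genes at the level limit, in 10 places, 8 of genes that rose and 2 of genes that fell, with 21 genes in all. Both genes of 1 of the fallen pairs had runs that differ. The longest, on chromosome 17, held 3 genes, and a pair on chromosome 8 included Glyma08g12270.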

How the data were processed

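Total RNA was sequenced as Illumina TruSeq cDNA libraries, per the labels' protocols. Trimmomatic 0.38 and HISAT2 are named, per the submitters' processing notes. For the build, annotation, counting tool and strand use, nothing is given in the sources used here, so overlapping genes and near-identical copies are uncertain. The deposited signal values are read counts that the authors divided by a size factor per library, and 100% of values were whole multiples of 1 read within 0.001 reads. Of 46 labelled runs 45 matched a column, and 1 column matched no sample title and was not used.

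Runs of a replicate were averaged, giving 21 replicates. A gene entered the test when 3 or more replicates reached 10 normalized counts (46537 of 54175 genes). The test was limma (version 3.58.1, R 4.3.3), fitted to log2(value + 1) of all 7 stages with robust moderation, a variance trend and Benjamini-Hochberg adjustment. On this scale changes of weakly expressed genes are understated. Where no tool stands beside an adjusted p, it is limma's. SEs come from the same fit and so draw on the spread of replicates in all 7 stages. Beside them, n = 3 against 3 counts only the compared replicates. In the compared stages run 1 held 2.53 to 9.18 M reads and run 2 46.47 to 57.86 M. Elsewhere run 1 reached 17.24 M in dry seed replicate 3, and run 2 was only 2.47 M in early desiccation replicate 2. Runs were said to differ at a mean log2 difference of 1 or more. edgeR 4.0.16 and DESeq2 1.42.0 were run on recovered reads, and Python 3.11.15 was used for summaries. On recovered reads, edgeR called 1336 genes and DESeq2 353.

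Genes named are the first 2 that rose and the first 2 that fell by size among called genes with both means of at least 200 and replicates that do not overlap, plus 2 chosen after their values were seen. Of the gene IDs, 0 were found among the 59048 genes listed for assembly Glycine_max_v4.0, so gene lists were not applied. The comparison, the level limit and the groupings were chosen with earlier results of these data known.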

Additional observations from a re-analysis of the deposited data

How the results depend on the processing

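All 4 named genes whose runs agree kept their direction and their call under every alternative run. Glyma09g28800 had a log2 change of -1.89 with run 2 alone and of -10.31 with run 1 alone. The number of genes called (253; 178 rose, 75 fell) was 1507 (1488 and 19) under TMM, 1336 (1319 and 17) with edgeR, 128 (82 and 46) in a fit of the compared stages alone, 901 (791 rose) with no fold threshold, 394 (147 fell) with a mean of 200 over all stages as the limit and 627 (308 and 319) with no limit. Leaving out 1 replicate gave 79 to 470 called, 58 to 428 that rose and 21 to 77 that fell. It gave differences in the share of the 100 leading genes of -3.28 to 0.175 percentage points, positive without late desiccation replicate 3. Alternatives chosen after seeing the data gave 554 (462 and 92) without replicate 3 of early and late desiccation, 474 (452 and 22) with run 2 alone, 90 that rose and 151 that fell with scaling to the median, 124 that fell without early desiccation and 244 that fell among genes under the limit. The cause of these shifts was not tested. Of 199 alternative values, 160 kept their direction and side of the threshold or stayed within 1.5 times. Most of these 160 were log2 changes of the named genes, which were picked for large called changes. All 37 values that moved by more than 1.5 times were counts of genes called, of genes that rose or of genes that fell. The pooled number therefore does not describe how stable these counts were. Array weights did not converge and are not given. Depth limits late desiccation replicate 3 most, where 200 normalized counts are 23.0 reads. Across genes, deviations from the own stage mean correlated by -0.02, -0.15 and 0.05 between same-numbered late desiccation and 3 h replicates. The numbers were therefore not taken to pair the samples, and the replicate block gave 265 calls.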
